A study of Mus musculus with 7 samples.

Results

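The genes described here are the histone genes of mouse prospermatogonia, the fetal male germ cells that leave the mitotic cycle before birth. They were chosen by symbol: a gene was a member when its name had the form of a histone gene in the older (Hist1h, H2af, H3f3) or the newer (H2ac, H2bc, H3c, H4c, H1f) naming. The rule found 63 of the 20643 genes in the table. Of these, 58 are replication-dependent histone genes, 4 are variant histone genes (H1f0, H1f10, H3f3a and H3f3b), and 1, H3f4, is a testis H3 gene that was kept apart because the annotation used here, GENCODE vM21, lists it under an unnamed locus as a pseudogene.

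Total RNA was sequenced after depletion of ribosomal RNA in 7 libraries of EGFP-positive prospermatogonia from fetuses at 15.5 dpc (15 dpc in the sample names). There were 2 wild type (WT) libraries (replicates 1 and 2), 2 from homozygous H19Ter/H19Ter fetuses (replicates 3 and 4) and 3 from homozygous H19Ter+neo/H19Ter+neo fetuses (replicates 5, 6 and 7). These are called the WT, H19Ter and H19Ter+neo libraries below. H19Ter carries a transcription terminator cassette beside the imprinting control region between H19 and Igf2, and H19Ter+neo carries the same cassette with the Pgkneo selection cassette that Cre later removed to give H19Ter. Both lines go back to chimeras from 1 ES cell line of the 129 strain, and the mutant fetuses came from crosses between homozygotes. EGFP came from a transgene driven by the Pou5f1 promoter and served to sort the cells. It was crossed in from the TgOG2 line, which the paper lists with a B6 and CBA background. No source used here gives the strain background or the litter of each library, and genotype cannot be told apart from background or litter. The p-values below measure only the spread between these libraries.

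The libraries held 45.1 and 45.9 M read pairs in genes in WT, 51.2 and 37.5 M in H19Ter, and 84.1, 86.3 and 87.3 M in H19Ter+neo, so counting error was smallest in H19Ter+neo. All 10 germ cell markers (Dazl, Ddx4, Mael and others) were detected, and their summed level was 4031 to 4214 CPM (read pairs scaled to a common library size) in WT, 3721 to 3834 in H19Ter and 4206 to 4326 in H19Ter+neo. Of these 10, 4 were called lower and 0 higher in H19Ter against WT, where 11% of all genes were called lower and 14.1% higher. In H19Ter+neo against WT, 3 were called higher and 3 lower, where 27.7% of all genes were called higher and 26.7% lower. The 7 Sertoli markers summed to between 15.7 and 25.3 CPM over all libraries. The 7 interstitial and peritubular markers summed to 43.1 to 52.0 CPM in WT, 54.2 to 100.5 in H19Ter and 43.2 to 66.8 in H19Ter+neo. The 4 Leydig markers measured summed to between 4.82 and 27.4 CPM, both in H19Ter+neo (replicates 7 and 5). The 5 endothelial markers summed to 28.2 to 31.7 CPM, the 2 leukocyte markers measured to 4.18 to 6.09 CPM and Alas2, the erythroid marker measured, was at 1.66 to 5.82 CPM. Single markers were called beside the histone genes, among them Pdgfrb of the interstitial list, 4.0-fold and 3.29-fold above WT in H19Ter and H19Ter+neo (limma adjusted p = 0.000136 and 2.68e-05), and Sox9 of the Sertoli list, 2.64-fold and 1.78-fold above WT (limma adjusted p = 0.00078 and 0.00112). Both were chosen after their values were seen, and other markers of these lists went the other way in H19Ter+neo. Amh and Wt1 of the Sertoli list were at 0.53 and 0.58 of WT there (limma adjusted p = 0.0159 and 0.0121). Of the 7 Sertoli markers, 2 were called higher and 0 lower in H19Ter, and 1 higher and 2 lower in H19Ter+neo. For the 7 interstitial and peritubular markers these counts were 1 and 0, and 2 and 1. No marker measured was at 0 in all libraries, and the part of these cells in the results was not tested.

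As background, replication-dependent histone genes are transcribed in S phase, when new DNA has to be packed into nucleosomes. They lie in clusters and exist in many near-identical copies. Their mRNAs are not polyadenylated and end just after a short hairpin, the histone stem-loop, which the stem-loop binding protein Slbp recognises. Variant histone genes are mostly single-copy genes with ordinary polyadenylated mRNAs, made also outside S phase. Depletion of ribosomal RNA, unlike selection of poly(A), keeps both kinds of mRNA. In such bulk libraries, fewer cells with an mRNA and less of that mRNA per cell cannot be told apart.

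The stem-loop was found in the annotated transcripts of 38 of the 58 replication-dependent genes and in none of the 4 variant genes. Of the 21951 protein-coding genes of the annotation, 70 (0.319%) held it. The annotated transcripts of the other 20 replication-dependent genes hold no match. The sequences of members that the results turn on are shown from the GENCODE vM21 transcripts, 5′ to 3′, with the hairpin in capitals.
H4c4: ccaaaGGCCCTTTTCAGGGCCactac
H4c3: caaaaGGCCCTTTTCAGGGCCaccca
H4f16: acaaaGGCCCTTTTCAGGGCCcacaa
H4c9: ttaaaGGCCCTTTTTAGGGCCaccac
H4c18: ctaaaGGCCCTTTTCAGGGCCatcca
H2bc8: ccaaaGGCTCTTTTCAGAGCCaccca
H2bc7: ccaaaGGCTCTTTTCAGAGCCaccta
H1f2: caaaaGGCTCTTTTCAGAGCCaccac
H3c7: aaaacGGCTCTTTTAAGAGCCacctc
H3c8: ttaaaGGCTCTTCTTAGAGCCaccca
H2ac20: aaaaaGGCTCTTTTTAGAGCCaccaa
The 12 H4 members with a hairpin all began it with GGCCC or GGTCC. The 4 H1, 6 H2A, 9 H2B and 7 H3 members with a hairpin all began it with GGCTC. The most common hairpin, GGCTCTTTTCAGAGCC, was shared by 18 members of the H1, H2A, H2B and H3 families, and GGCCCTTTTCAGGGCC by 7 H4 members.

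The promoters also differed by family. RefSeq promoters (GRCm38.p6) matched 58 of the 63 members, and the 250 bases before each start were searched on both strands. The letters CCAAT, a box common in promoters, stood before all 6 H1, 13 H2A, 14 H2B and 8 H3 replication-dependent members matched and before 3 of 12 H4 members, and 34.5% of all promoters hold them. The letters GGTCCG stood before 9 of 12 H4 members and 2 of the 41 other replication-dependent members, against 6.82% of all promoters. They were picked after the H4 promoters had been read. The octamer ATTTGCAT, known from H2B promoters, stood before 6 of 13 H2A and 6 of 14 H2B members and no H1, H3 or H4 replication-dependent member, against 1.61% of all promoters. TATAAA stood before 28 of the 53 replication-dependent members matched, against 13% of all promoters. Such a match is a string of letters and shows no binding.

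The stretches below carry these letters in capitals, on either strand. The first lies between the starts of H2ac8 and H2bc8 and is shared by this divergent pair (chr13:23571221-23571395, plus strand). The next lies before H4c4, the replication-dependent member with the most reads (chr13:23581318-23581567, plus strand). H1f5 is a linker histone gene that was lower in both mutants (chr13:21780626-21780875, minus strand). H3f3b is the variant gene with the most reads (chr11:116024505-116024754, minus strand).
H2ac8-H2bc8: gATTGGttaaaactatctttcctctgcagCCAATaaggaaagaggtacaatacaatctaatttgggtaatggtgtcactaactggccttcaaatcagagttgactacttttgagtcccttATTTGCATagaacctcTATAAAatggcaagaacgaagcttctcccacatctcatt
H4c4: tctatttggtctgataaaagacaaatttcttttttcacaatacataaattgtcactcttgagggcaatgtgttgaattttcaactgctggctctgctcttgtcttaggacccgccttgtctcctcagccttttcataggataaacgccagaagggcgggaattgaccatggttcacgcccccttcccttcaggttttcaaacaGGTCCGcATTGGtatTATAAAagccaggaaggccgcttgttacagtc
H1f5: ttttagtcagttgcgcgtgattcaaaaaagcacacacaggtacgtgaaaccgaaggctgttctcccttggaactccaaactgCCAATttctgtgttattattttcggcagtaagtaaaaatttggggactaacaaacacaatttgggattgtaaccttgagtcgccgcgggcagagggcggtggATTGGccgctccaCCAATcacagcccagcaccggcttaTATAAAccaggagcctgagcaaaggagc
H3f3b: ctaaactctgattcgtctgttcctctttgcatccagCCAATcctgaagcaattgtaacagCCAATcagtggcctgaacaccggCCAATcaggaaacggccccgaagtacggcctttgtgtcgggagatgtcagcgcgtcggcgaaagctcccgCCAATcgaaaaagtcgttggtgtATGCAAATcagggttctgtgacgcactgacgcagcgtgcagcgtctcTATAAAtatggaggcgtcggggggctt

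Shared sequence limits what single members can show. Reads were counted only where they mapped to 1 place, and the members resemble each other. A median of 50.6% of the 50-base windows of a replication-dependent gene (range 0 to 100) occurred in no other annotated transcript. In 27 of the 58 genes this share was under 50%, and in 8 it was at least 90%. It is given below as the percentage unique, and genes with a low share are uncertain.

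Replication-dependent histone mRNAs were abundant in WT. Per kilobase of annotated exon, the highest mean level in WT among all members was that of H4c4, 209 CPM per kb. H4c8 followed with 196 CPM per kb, and H3f3b, which encodes the replacement histone H3.3, came next with 175 CPM per kb. H4 members took 7 of the first 8 places. The highest H2B, H1, H2A and replication-dependent H3 members were H2bc8, H1f1, H2ac15 and H3c6, with 97.3 CPM per kb, 94.1 CPM per kb, 64.2 CPM per kb and 62.4 CPM per kb; H2ac15 and H3c6 were picked for this place after their values were seen. Annotated exons ran from 312 to 7425 bases, and a long model lowers this measure, as in H1f3 (11.2 CPM per kb).

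The summed level of the 58 replication-dependent genes was lower in H19Ter than in WT and highest in H19Ter+neo. It was 1661 and 1742 CPM in WT, 1294 and 1221 CPM in H19Ter, and 3119, 1984 and 3220 CPM in H19Ter+neo. The genotypes did not overlap over all 58 genes, but replicate 6 lay much closer to WT than replicates 5 and 7 did. The means were 1702 ± 57.3 CPM in WT, 1258 ± 51.6 CPM in H19Ter and 2774 ± 686 CPM in H19Ter+neo (SD, n = 2, 2 and 3), which put H19Ter at 0.739 and H19Ter+neo at 1.63 of WT. Without replicate 6 the H19Ter+neo mean was 3169 CPM, 1.86 of WT, and replicate 6 alone was 1.17 of WT. The gap between WT and replicate 6 closed without the gene H4c4, although the other 12 H4 genes of replicate 6 summed to 1.46 of WT. In replicate 6 the H1 and H3 sums were at 0.471 and 0.62 of WT. When H4c4 was left out, WT had 1412 and 1515 CPM and H19Ter+neo had 2425, 1496 and 2338 CPM. Replicate 6 then lay between the WT libraries, and the H19Ter+neo mean was 1.43 of WT. Over the 8 members that are at least 90% unique, 5 of which are H1 genes, the means were 322 ± 35 CPM in WT, 214 ± 12.6 CPM in H19Ter and 325 ± 84.1 CPM in H19Ter+neo, with H19Ter+neo at 1.01 of WT. H4c4, at 89.8% unique, fell just short of this set, so this ratio leaves out the member with the most reads.

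The sum of the 4 variant genes moved less. Most of it was H3f3b, so this sum and ratios to it say little about H3f3a, H1f0 and H1f10, which are given below. The 4 variant genes summed to 584 and 621 CPM in WT, 588 and 557 CPM in H19Ter, and 680.4, 668 and 604 CPM in H19Ter+neo. Each mutant overlapped WT. The ratio of replication-dependent to variant reads was 2.84 and 2.81 in WT, 2.2 and 2.19 in H19Ter, and 4.58, 2.97 and 5.33 in H19Ter+neo. H4c4 alone held a mean of 14% of the replication-dependent reads in WT, 18.9% in H19Ter and 24.8% in H19Ter+neo.

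**Figure D1:**
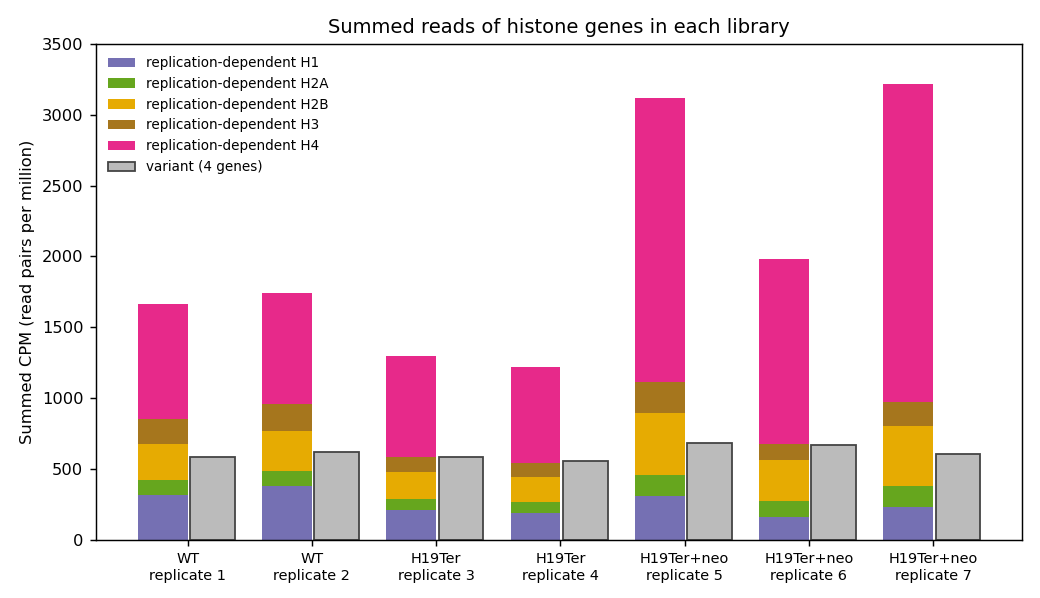
Summed CPM in each of the 7 libraries of the replication-dependent histone genes, by family, and of the 4 variant genes. The replication-dependent sum lies between 1661 and 1742 CPM in WT, 1221 and 1294 in H19Ter and 1984 and 3220 in H19Ter+neo, and the variant sum between 557 and 680.

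The families did not move alike. H4 summed to a mean of 797 ± 17.3 CPM in WT, 697 ± 19.9 CPM in H19Ter and 1853 ± 487 CPM in H19Ter+neo (SD, n = 2, 2 and 3, as below). H1 was lower than WT in both mutants, with 346 ± 45.7 CPM in WT, 199.6 ± 18.6 CPM in H19Ter and 233 ± 71.7 CPM in H19Ter+neo. H3 had 183 ± 8.83 CPM in WT, 100 ± 3.84 CPM in H19Ter and 167 ± 51 CPM in H19Ter+neo. H2A had 108 ± 3.04 CPM in WT, 77.5 ± 0.383 CPM in H19Ter and 136 ± 22.3 CPM in H19Ter+neo, and H2B had 267 ± 17 CPM in WT, 184 ± 9.69 CPM in H19Ter and 386 ± 83 CPM in H19Ter+neo. The H4 share of replication-dependent reads was 48.7 and 45.1% in WT, 54.9 and 55.9% in H19Ter, and 64.3, 65.9 and 69.7% in H19Ter+neo, without overlap between genotypes. The H1 share was 18.9 and 21.7% in WT, 16.4 and 15.3% in H19Ter, and 9.82, 8.22 and 7.11% in H19Ter+neo. In both shares replicate 6 lay between replicates 5 and 7.

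Single genes were tested with limma on the log2 CPM of all 20643 genes and called at a Benjamini-Hochberg adjusted p under 0.05. Differences below are on this log2 scale, with their standard error (SE). In H19Ter against WT, 25 of the 58 replication-dependent genes were called, 24 lower and 1 higher, while 25.1% of all genes were called (11% lower and 14.1% higher). The median difference of the 58 was -0.68, beside -0.01 over all genes. The calls comprised 5 of 6 H1, 4 of 13 H2A, 7 of 16 H2B, 8 of 10 H3 and 1 of 13 H4 members, and all 13 H2A and 10 H3 members had differences below 0. None of the 4 variant genes passed the threshold in limma or with voom on the recovered reads. At an unadjusted p under 0.05 there was 1, H1f10, where 39.2% of all genes passed.

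The number of calls in H19Ter depended strongly on the fit, among the 58 and among all genes. Fewer of both were called when a WT or H19Ter library was left out, which leaves that genotype a lone library. Without H19Ter+neo replicates 5 and 6, which share in the estimate of spread, 39 and 41 of the 58 were called. Of all 20643 genes, 3116 and 2552 were then called higher and 2754 and 2038 lower. With voom 3 of the 58 were called, a smaller share than of all genes (1690 higher and 1402 lower). The median of the 58 differences lay between -0.78 and -0.56 over all these fits.

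Linker histone genes fell together. H1 linker histones bind the DNA that enters and leaves the nucleosome, and H1f1 to H1f5 encode somatic replication-dependent subtypes. H1f5 (chr13:21779883-21780625, minus strand, a single exon, 100% unique) had 36.2 and 42.4 CPM in WT, 20.5 and 17.5 CPM in H19Ter, and 29.1, 12.7 and 21.7 CPM in H19Ter+neo. Every mutant library lay below both WT libraries. The difference from WT was -1.05 (SE 0.29, limma adjusted p = 0.0254) in H19Ter and -0.97 (SE 0.26, limma adjusted p = 0.01) in H19Ter+neo.

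H1f1 (chr13:23763666-23764406, plus strand, a single exon, 100% unique) had 62.9 and 76.6 CPM in WT, 34.8 and 32.4 CPM in H19Ter, and 64.6, 27.1 and 42 CPM in H19Ter+neo. H19Ter lay below WT, whereas replicate 5 of H19Ter+neo lay within the WT values. Its differences from WT were -1.05 (SE 0.29, limma adjusted p = 0.027) in H19Ter and -0.73 (SE 0.27, limma adjusted p = 0.0394) in H19Ter+neo. H1f2, H1f3 and H1f4 also fell in H19Ter, by 0.59, 0.84 and 0.80 on the log2 scale (limma adjusted p = 0.0259, 0.043 and 0.0239). In H19Ter+neo they fell by 0.38, 0.74 and 0.63 (limma adjusted p = 0.0494, 0.026 and 0.0204). H1f4 shares exons with 2 other genes, has 74.3% of its bases free of them, and was named after its values were seen.

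These calls rest on few libraries. None of H1f1 to H1f5 was called in H19Ter without WT replicate 2, without H19Ter replicate 4 or with voom, and 1 was called without WT replicate 1 or without H19Ter replicate 3. In H19Ter+neo none was called without WT replicate 2, and 3 were called without any 1 of WT replicate 1, H19Ter replicates 3 and 4 and H19Ter+neo replicates 6 and 7. The H19Ter+neo calls of H1f1 and H1f2 were also lost with the 2 groups only and after a correction for GC and transcript length, and that of H1f2 with voom. None of H1f1 to H1f5 was called between the mutants, with differences of 0.08 to 0.32 (limma adjusted p = 0.323 to 0.85). The testis linker histone H1f6, named after its values were seen, had 6.63 and 8.22 CPM in WT, 8.53 and 8.23 CPM in H19Ter, and 6.79, 6.55 and 9.7 CPM in H19Ter+neo, with no call (limma adjusted p = 0.514 and 0.883 against WT).

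H3 and H2A genes held many of the larger falls in H19Ter. H3 and H4 form the tetramer at the core of the nucleosome, and H2A and H2B add as dimers. H3c8 (46% unique) had 10.8 and 12.6 CPM in WT, 5.26 and 4.31 CPM in H19Ter, and 10.5, 4.34 and 7.14 CPM in H19Ter+neo. H19Ter lay below WT, and replicate 5 of H19Ter+neo came close to WT. Its differences were -1.28 (SE 0.31, limma adjusted p = 0.0158) and -0.76 (SE 0.29, limma adjusted p = 0.0441), and the call in H19Ter+neo was kept in 7 of 15 other fits, not in those without WT replicate 1 or 2, H19Ter replicate 3 or 4 or H19Ter+neo replicate 6 or 7.

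H3c7 (50.7% unique) had 32 and 36.9 CPM in WT, 19.1 and 16.3 CPM in H19Ter, and 41.3, 20.8 and 30.6 CPM in H19Ter+neo. H19Ter lay below WT, and the H19Ter+neo libraries lay on both sides of it. Its difference was -0.96 (SE 0.24, limma adjusted p = 0.0181) in H19Ter and -0.21 (SE 0.22, limma adjusted p = 0.438) in H19Ter+neo. H3c13, on chromosome 3, had -1.17 (SE 0.37, limma adjusted p = 0.0412) in H19Ter, but none of its windows is its own and its exon overlaps another gene.

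H2ac20 (chr3:96220361-96220880, minus strand, 45% unique) had 3.22 and 3.37 CPM in WT, 1.11 and 0.516 CPM in H19Ter, and 2.28, 0.804 and 1.71 CPM in H19Ter+neo. All mutant libraries were below WT. The differences were -2.07 (SE 0.46, limma adjusted p = 0.0104) and -1.15 (SE 0.42, limma adjusted p = 0.0378), and the call in H19Ter+neo was kept in 11 of 15 other fits, not without WT replicate 1 or 2 or H19Ter+neo replicate 6. H2ac10 (6.0% unique) and H2ac21 (35.2% unique) had differences of -1.64 and -1.31 in H19Ter (limma adjusted p = 0.0195 and 0.0265). Among H2B genes, H2bc9 and H2bc14 had -1.25 and -1.05 there (limma adjusted p = 0.0385 and 0.0478). Each of these H3, H2A and H2B calls in H19Ter was lost without WT replicate 2 and without H19Ter replicate 4, and, except for H2ac20, with voom.

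H4f16 was the only replication-dependent gene called higher in H19Ter. It encodes H4 from a site outside the clusters (chr6:136801553-136804415, minus strand, a single exon, 91.5% unique), and 2445 annotated bases follow its hairpin. It had 25.4 and 21.4 CPM in WT, 41.6 and 43.1 CPM in H19Ter, and 146, 107 and 118 CPM in H19Ter+neo. The genotypes formed separate steps. H19Ter differed from WT by 0.86 (SE 0.13, limma adjusted p = 0.00225), and H19Ter+neo from WT by 2.39 (SE 0.12, limma adjusted p = 1.35e-06), which is 5.26-fold. H19Ter+neo differed from H19Ter by 1.53 (SE 0.12, limma adjusted p = 5.45e-05). These calls held in all 15 other fits.

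In H19Ter+neo against WT, replication-dependent genes were called in both directions, 17 of 58 higher and 9 lower. This is 44.8% of them, while 54.4% of all genes were called (27.7% higher, 26.7% lower; 60.1% at an unadjusted p under 0.05), so the members' share lay below the background. The median difference of the 58 was 0.15, beside 0.01 over all genes. By family, H1 had 0 higher and 5 lower, H2A 5 and 2, H2B 6 and 1, H3 0 and 1, and H4 6 and 0. Without WT replicate 1 the split was 12 higher and 4 lower, and without WT replicate 2 it was 12 and 0. Without H19Ter+neo replicate 5 it was 13 higher and 17 lower, where 5548 of all genes were called higher and 5570 lower. Without replicate 6 it was 26 and 4, where the counts over all genes were 5098 and 5064.

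H4 genes held the 3 largest rises among replication-dependent members, in H4f16, H4c9 and H4c18. H4c4 (chr13:23581598-23582735, plus strand, 89.8% unique) had 249 and 227 CPM in WT, 245 and 229.9 CPM in H19Ter, and 694, 489 and 882 CPM in H19Ter+neo. WT and H19Ter overlapped, with a difference of -0.00 (SE 0.20, limma adjusted p = 0.989), and every H19Ter+neo library was far above both. The difference of H19Ter+neo from WT was 1.49 (SE 0.18, limma adjusted p = 0.000107), which is 2.81-fold. H4c3 (chr13:23697635-23698454, minus strand, 80.4% unique) had 122 and 114 CPM in WT, 112 and 105 CPM in H19Ter, and 327, 243 and 382 CPM in H19Ter+neo. Its difference from WT was 1.4 (SE 0.14, limma adjusted p = 4.55e-05) in H19Ter+neo.

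H4c9 (71.1% unique) had 18.8 and 17.7 CPM in WT, 28 and 34.7 CPM in H19Ter, and 75.6, 59.1 and 124 CPM in H19Ter+neo. H19Ter lay above WT without passing the threshold, by 0.77 (SE 0.26, limma adjusted p = 0.0522), and H19Ter+neo was 4.49-fold above WT (limma adjusted p = 5.87e-05). H4c18, only 14.4% unique, had 35.5 and 38.2 CPM in WT, 48.8 and 57.7 CPM in H19Ter, and 153, 103 and 244 CPM in H19Ter+neo. The order was the same, with a difference of 2.09 (SE 0.26, limma adjusted p = 0.000131) in H19Ter+neo. The calls of H4c3, H4c4, H4c9 and H4c18 in H19Ter+neo against WT held in all 15 other fits.

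Other H4 genes with high levels did not pass the threshold there. H4c8 had 94.1 and 90.2 CPM in WT, 62.6 and 60.5 CPM in H19Ter, and 166, 88.4 and 156 CPM in H19Ter+neo. Replicates 5 and 7 were above WT and replicate 6 below it, with a difference of 0.52 (SE 0.21, limma adjusted p = 0.0575). H4c1 and H4c6 had differences of 0.39 and 0.12 (limma adjusted p = 0.187 and 0.787), with replicate 6 again below both WT libraries.

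H2bc8 (50.3% unique), an H2B gene, was the only member called in opposite directions in the mutants. It had 59.2 and 61.1 CPM in WT, 41.6 and 42.8 CPM in H19Ter, and 99.2, 69.5 and 97.9 CPM in H19Ter+neo. No genotypes overlapped. The differences were -0.51 (SE 0.14, limma adjusted p = 0.0282) in H19Ter, a call lost in 6 of 15 other fits, among them those without WT replicate 1 or 2 or H19Ter replicate 3 or 4, and 0.54 (SE 0.13, limma adjusted p = 0.00562) in H19Ter+neo, kept in all 15. Its divergent neighbour H2ac8, named after its values were seen, had no call against WT (limma adjusted p = 0.122 and 0.138).

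H2bc7 (34.2% unique) had 18.8 and 18 CPM in WT, 18.3 and 17 CPM in H19Ter, and 39.3, 33.9 and 53.3 CPM in H19Ter+neo. WT and H19Ter overlapped, and H19Ter+neo was 2.24-fold above WT (limma adjusted p = 0.00017). H2bc3 (59.9% unique) was 1.81-fold above WT in H19Ter+neo (limma adjusted p = 0.000439).

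Testis histone genes are variants of the core genes known from the male germ line. H2bc1, a testis H2B gene (61.8% unique), had 2.79 and 2.85 CPM in WT, 3.1 and 3.35 CPM in H19Ter, and 9.96, 6.75 and 10.4 CPM in H19Ter+neo. It was 3.12-fold higher in H19Ter+neo than in WT (limma adjusted p = 7.34e-05). Its divergent partner H2ac1, named after its values were seen, differed there by 0.72 (SE 0.23, limma adjusted p = 0.0235). H3f4 (chr11:58961812-58962222, plus strand, 100% unique) had 4.47 and 4.69 CPM in WT, 5.0 and 3.77 CPM in H19Ter, and 13.2, 13.1 and 18.9 CPM in H19Ter+neo. WT and H19Ter overlapped, while H19Ter+neo was 3.23-fold above WT (limma adjusted p = 5.21e-05, kept in all 15 other fits).

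H19Ter+neo against H19Ter gave calls in 1 direction. Of the 58 replication-dependent genes 36 were called, all higher in H19Ter+neo, while 27.7% of all genes were called (12.5% higher and 15.2% lower; 40% at an unadjusted p under 0.05). The median difference was 0.83, beside 0.01 over all genes. The calls comprised 0 of 6 H1, 10 of 13 H2A, 12 of 16 H2B, 4 of 10 H3 and 10 of 13 H4 genes. H4c1, H4c8 and H4c6, not called against WT, differed here by 1.17, 1.1 and 1.1 (limma adjusted p = 0.00581, 0.00411 and 0.0361). The calls of H4c1 and H4c8 held in all 15 other fits, and that of H4c6 in 8, not with voom or without WT replicate 1 or 2, H19Ter replicate 3 or 4 or H19Ter+neo replicate 7. Without H19Ter replicate 4 there were 23 calls, and among the 8 members at least 90% unique there was 1.

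**Figure D2:**
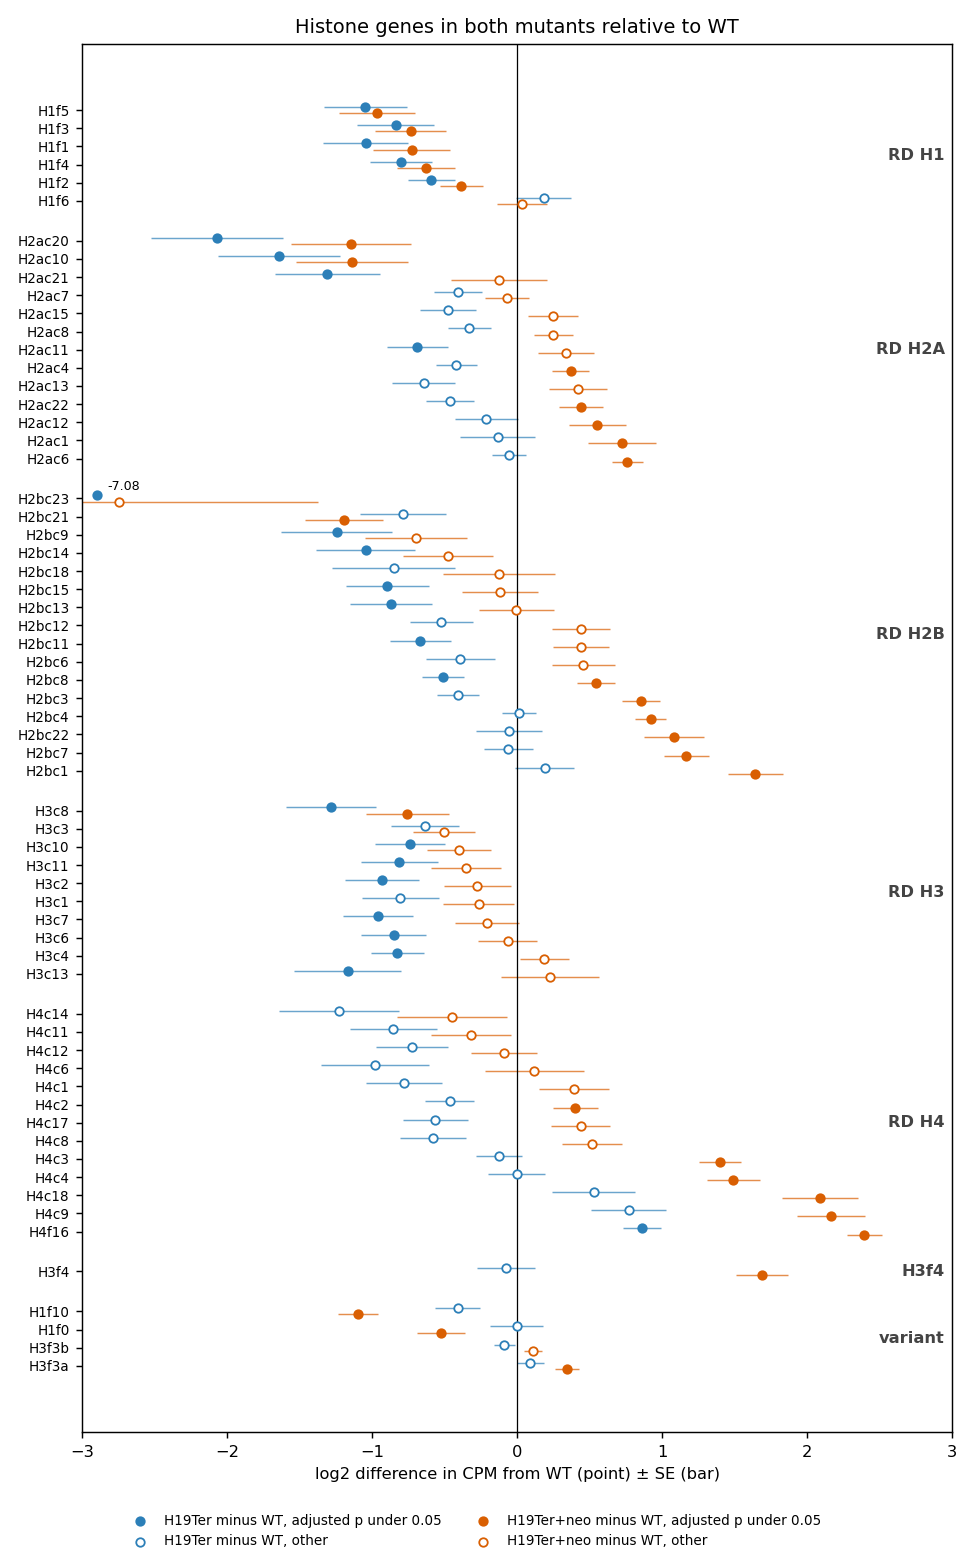
The log2 difference from WT of each histone gene in H19Ter and H19Ter+neo, with bars of 1 SE; filled points passed the adjusted p of 0.05, and the H19Ter value of H2bc23 (-7.08) is drawn at the edge. In H19Ter all H3 members and 5 of 6 H1 members lie below 0, and in H19Ter+neo 6 H4 members lie above 0 with a call.

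By pattern over the 3 comparisons, 15 replication-dependent genes were called higher in H19Ter+neo against both other genotypes with no call between H19Ter and WT, H4c3, H4c4, H4c9 and H4c18 among them. A further 10 were called lower in H19Ter than in both others, H3c7 among them. A set of 8 was lower in both mutants than in WT with no call between the mutants, namely H1f1 to H1f5, H2ac10, H2ac20 and H3c8. In 8 genes nothing was called. The comparisons share libraries, so these patterns are descriptions. The share of all genes with each pattern was not computed, so the patterns cannot be called particular to histone genes.

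**Figure D3:**
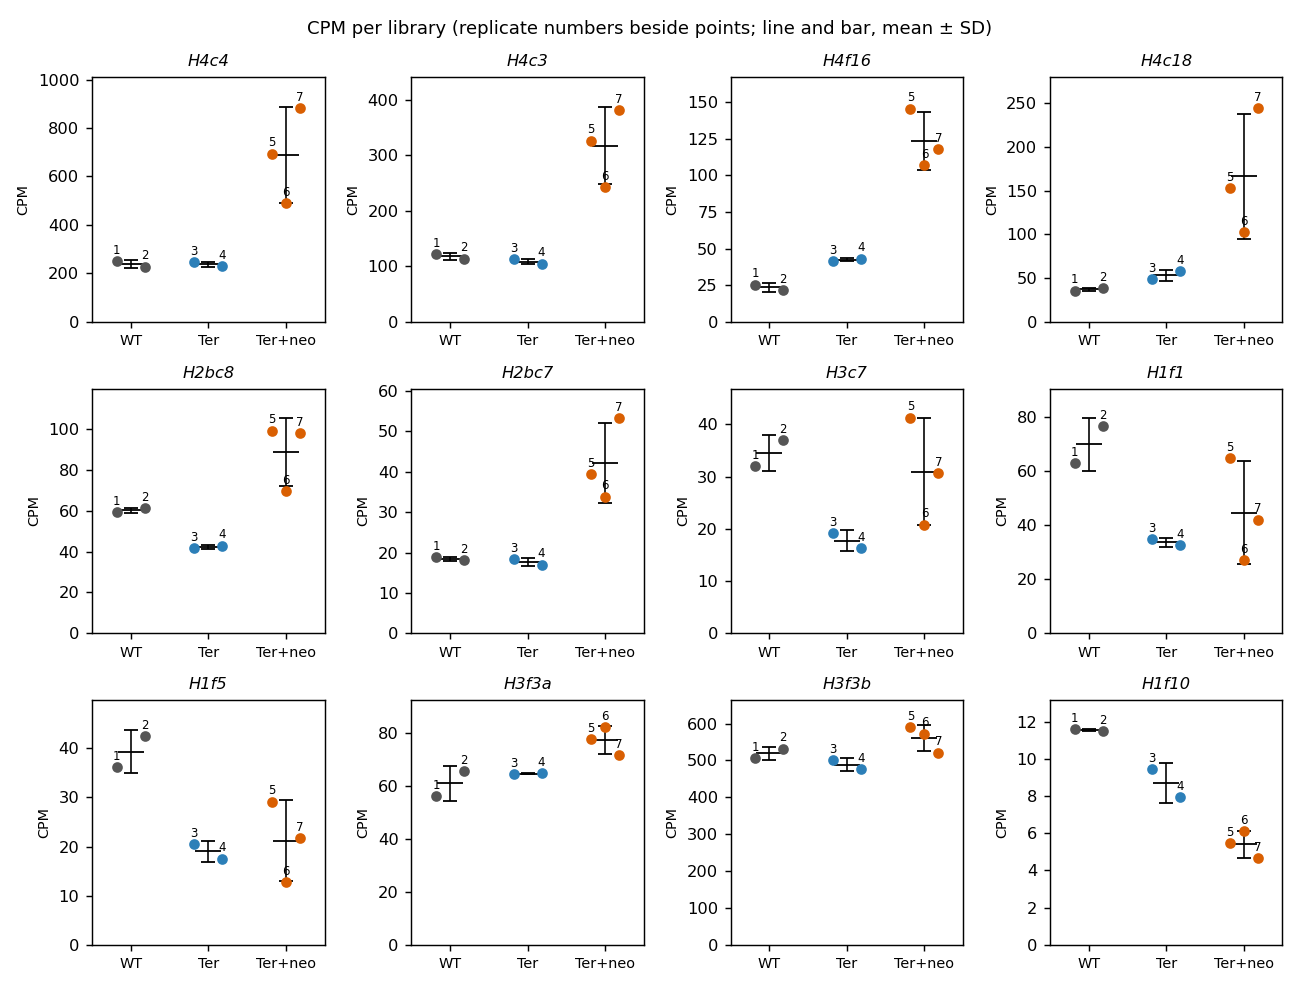
CPM of 12 histone genes in each library by genotype; points are libraries, and the line and bar are the mean ± SD (n = 2, 2 and 3). H4c4 overlaps between WT and H19Ter and is higher in H19Ter+neo, H4f16 rises in steps, and H3f3b stays between 476 and 589 CPM.

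The variant genes moved in different directions. H3f3b (chr11:116021912-116027962, minus strand, 93.1% unique) had 507 and 532 CPM in WT, 502 and 476 CPM in H19Ter, and 589, 573 and 521 CPM in H19Ter+neo. The genotypes lay close together, with differences from WT of -0.09 (SE 0.07, limma adjusted p = 0.376) in H19Ter and 0.11 (SE 0.06, limma adjusted p = 0.17) in H19Ter+neo. H3f3a (chr1:180800832-180813943, minus strand, 72.9% unique), which encodes the same H3.3 protein, had 56.1 and 65.5 CPM in WT, 64.4 and 64.6 CPM in H19Ter, and 77.5, 82.2 and 71.6 CPM in H19Ter+neo. H19Ter+neo lay above WT and differed from it by 0.34 (SE 0.08, limma adjusted p = 0.00618), a call lost without WT replicate 1.

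The linker variants went down in H19Ter+neo. H1f10 (chr6:87980421-87981637, minus strand) had 11.6 and 11.5 CPM in WT, 9.47 and 7.95 CPM in H19Ter, and 5.46, 6.11 and 4.67 CPM in H19Ter+neo. The genotypes did not overlap, with differences from WT of -1.1 (SE 0.14, limma adjusted p = 0.000143) in H19Ter+neo, kept in all 15 other fits, and -0.41 (SE 0.15, limma adjusted p = 0.0746) in H19Ter. H1f0 (chr15:79028450-79030504, plus strand), a linker histone of resting and differentiated cells, had 9.25 and 11.6 CPM in WT, 11.9 and 9.0 CPM in H19Ter, and 8.19, 7.28 and 6.22 CPM in H19Ter+neo. H19Ter overlapped WT and H19Ter+neo lay below it, with a difference of -0.53 (SE 0.17, limma adjusted p = 0.0203) that lost its call without WT replicate 2 or H19Ter+neo replicate 7.

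In all, 3 of the 4 variant genes were called in H19Ter+neo against WT, 1 higher and 2 lower, where 54.4% of all genes were called. All 4 were called in H19Ter+neo against H19Ter, 2 higher and 2 lower, where 27.7% of all genes were called. Without H19Ter replicate 3 none of these 4 calls remained, and that of H1f0 was also lost without H19Ter+neo replicate 6 or 7. The smallest differences, H3f3b by 0.20 and H3f3a by 0.25 (limma adjusted p = 0.0423 and 0.0472), also lost their calls when libraries were scaled to their totals and without H19Ter replicate 4 or H19Ter+neo replicate 5 or 6.

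The rule does not take the newer symbols of some histone genes. These are H2az1, H2az2, H2ax, H2aj, H2aw, H2bu2, Macroh2a1, Macroh2a2 and Cenpa. The annotated transcripts of H2ax, H2aw and H2bu2 hold the hairpin. H2az1, Macroh2a1 and Cenpa were chosen after their values were seen, and the others are not described. H2az1 (64.6% unique), which encodes an H2A.Z, was 1.43-fold above WT in H19Ter+neo (limma adjusted p = 0.00339). Macroh2a1 had 197 and 225 CPM in WT, 164 and 158 CPM in H19Ter, and 119.7, 114 and 91 CPM in H19Ter+neo. It was lower in both mutants, with differences of -0.39 (SE 0.12, limma adjusted p = 0.037) and -0.97 (SE 0.11, limma adjusted p = 6.59e-05). Cenpa, which encodes the centromeric H3, had differences of -0.70 (SE 0.12, limma adjusted p = 0.00303) and -0.91 (SE 0.11, limma adjusted p = 8.27e-05).

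Replicate 6 of H19Ter+neo stood apart in replication-dependent genes. In 55 of the 58 it was the lowest H19Ter+neo library (94.8%), against 28.6% of all genes with a mean log2 CPM of at least 0 and 0 of the 4 variant genes. Its log2 CPM minus the mean of replicates 5 and 7 had a median of -0.71 over the 58, with -0.73 for H1, -0.52 for H2A, -0.68 for H2B, -0.82 for H3 and -0.86 for H4. The same median was 0.09 for the variants and 0.00 over all genes. It was -0.07 for 23 S phase genes, 0.04 for 16 factors of histone mRNA metabolism and 0.02 for 22 histone chaperones. The median SD among H19Ter+neo libraries was 0.46 for the 58 against 0.12 for all genes, and in WT it was 0.11 against 0.09.

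**Figure D4:**
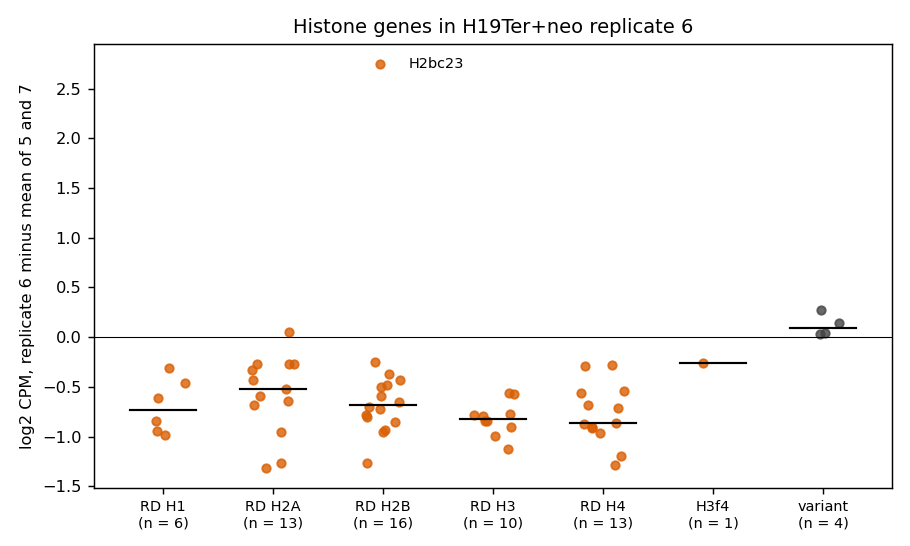
Log2 CPM in H19Ter+neo replicate 6 minus the mean of replicates 5 and 7, for each histone gene by family, with medians. The medians of the replication-dependent families lie between -0.86 and -0.52, and that of the variants at 0.09.

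H2bc23, named after its values were seen, had 195 and 189 reads in WT, 0 and 0 reads in H19Ter, and 1, 197 and 225 reads in H19Ter+neo. It was thus at or near 0 in both H19Ter libraries and in replicate 5, and in CPM replicates 6 and 7 (2.26 and 2.61) lay below WT (4.35 and 4.25). Against a floor of 3 reads in each H19Ter library it was at least 64.3-fold lower in H19Ter than in WT. Its model (chr13:21806612-21810197, minus strand, 3 exons) is only 2.68% unique, and the cause was not tested.

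By place, the 51 replication-dependent members on chromosome 13 and the 6 on chromosome 3 had median differences of -0.63 and -1.2 in H19Ter. In H19Ter+neo the medians were 0.25 and -0.29. A set of 10 H2A-H2B pairs start 176 to 306 bases apart on opposite strands, as in the H2ac8-H2bc8 stretch above. In H19Ter+neo against H19Ter both genes were called higher in 8 of the 10 pairs. In that comparison 10 of 13 H2A and 12 of 16 H2B genes were called higher and none lower. In H19Ter against WT no H2A or H2B gene was called higher. Opposite calls of partners could thus arise only in H19Ter+neo against WT. There no pair had them, and in 3 pairs both genes were higher and in 1 both lower.

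Of 16 factors of histone mRNA transcription, processing and decay, 5 were lower and none higher in H19Ter, where 11% of all genes were called lower and 14.1% higher. In H19Ter+neo against WT, 9 were lower and none higher, where 26.7% of all genes were called lower and 27.7% higher. Slbp, which binds the hairpins shown above, had 60.5 and 68.4 CPM in WT, 48.6 and 47.5 CPM in H19Ter, and 44.3, 38.3 and 38.4 CPM in H19Ter+neo. Both mutants lay below WT, by differences of -0.42 (SE 0.10, limma adjusted p = 0.0123) and -0.68 (SE 0.09, limma adjusted p = 0.000154). The call in H19Ter was lost without WT replicate 2 or H19Ter replicate 3 or 4. In H19Ter+neo, Upf1, which acts in the decay of histone mRNA, differed by -0.78, Srrt by -0.51 and Sympk, a scaffold of the cleavage complex, by -0.41 (limma adjusted p = 1.79e-05, 0.000425 and 0.000931).

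Of 22 histone chaperones and partners measured, 1 was higher and 1 lower in H19Ter, where 14.1% of all genes were called higher and 11% lower. In H19Ter+neo against WT, 1 was higher and 15 lower, where 27.7% of all genes were called higher and 26.7% lower. Chaf1a and Chaf1b, subunits of the chaperone that deposits H3 and H4 on new DNA, differed there by -0.76 and -1.18 (limma adjusted p = 3.8e-05 and 0.000107). Vps72, which handles H2A.Z, differed by -1.06 and Cabin1 by -0.59 (limma adjusted p = 2.79e-05 and 7.52e-05).

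Of 23 S phase genes, none was higher and 6 were lower in H19Ter, where 14.1% of all genes were called higher and 11% lower. In H19Ter+neo against WT, 2 were higher and 9 lower, where 27.7% of all genes were called higher and 26.7% lower. Mcm2, a subunit of the replicative helicase, had differences of -0.66 (SE 0.09, limma adjusted p = 0.00143) and -0.94 (SE 0.08, limma adjusted p = 2.1e-05). Mcm5 and Mcm7, of the same helicase, differed by -0.46 and -0.51 in H19Ter+neo (limma adjusted p = 0.000196 and 6.97e-05). Rrm1, a subunit of ribonucleotide reductase, was higher there by 0.47 (limma adjusted p = 0.000452). The S phase genes had a median difference of -0.14 in H19Ter+neo, where the replication-dependent histone genes had 0.15.

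Transcript length moved with the comparisons as well. Among 227 protein-coding genes other than histone genes with transcripts under 800 bases, the median difference was -0.21 in H19Ter against WT, 0.05 in H19Ter+neo against WT and 0.26 in H19Ter+neo against H19Ter. After removal of each library's GC and length trend, 17 replication-dependent genes were called in H19Ter (1 higher, 16 lower). Of all 20643 genes, 2941 were then called higher and 2636 lower. In H19Ter+neo against WT 29 were called (24 higher, 5 lower), a smaller share than of all genes (5811 higher and 5794 lower). Between the mutants 38 were called, beside 2243 higher and 2793 lower over all genes. The 15 members with at least 300 annotated bases after the hairpin had median differences of -0.8, -0.07 and 0.79 in the 3 comparisons, and the 23 with fewer had -0.56, 0.37 and 0.96. The summed CPM of these 15 was 0.824 of WT in H19Ter and 1.95 of WT in H19Ter+neo. For the 43 other replication-dependent members it was 0.666 and 1.35 of WT. Over these 43, replicate 6 (853 CPM) lay below both WT libraries (877 and 947 CPM). The part of length in the histone values was not tested further.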

How the data were processed

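The submitters' processing notes name Trim Galore 0.6.0, STAR 2.7.8, edgeR and mm10, and the authors counted uniquely mapped read pairs per gene with STAR. Neither its strand setting nor its annotation release is stated in what was read here. The deposited values are log2 CPM with a prior count scaled to each library. Undoing both gave whole read pairs for 100% of values, from which CPM were computed. Members, lists and tests were chosen with earlier results of these data known.

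Genotypes were compared with limma 3.58.1 (R 4.3.3; mean-variance trend, genotype only, all 7 libraries and 20643 genes in 1 fit, two-sided, Benjamini-Hochberg), tested on simulated data. Coordinates and transcripts came from GENCODE vM21 (GRCm38), promoters from RefSeq. Named are all variant genes, the 12 replication-dependent genes with the highest mean CPM, the 10 largest called differences per comparison at a mean log2 CPM of at least 0, and 4 genes per list. Alternatives were other pseudocounts (0.1 and 1), a filter, scalings, 2 groups only, voom, a GC and length correction, a 2-fold minimum and leaving out each library.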

Additional observations from a re-analysis of the deposited data

How the results depend on the processing

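Counts of called replication-dependent genes in H19Ter against WT (25) moved most. They were 44 with the 2 groups only, where 3069 of all genes were called higher and 3286 lower. With voom they were 3, where 1690 of all genes were called higher and 1402 lower. At 2-fold or more they were 10, and 5 among the 8 genes that are at least 90% unique (an alternative chosen after seeing the data). Over the leave-outs of H19Ter+neo libraries they were 37 to 41. Leaving out a WT or H19Ter library, which leaves that genotype a lone sample assumed to vary like the others, lowered the counts. In H19Ter+neo against WT (26) they were 11 at 2-fold, 6 among the unique genes and 12 to 30 over the leave-outs. In H19Ter+neo against H19Ter (36) they were 21, 1 and 23 to 47. Variant genes gave 1 call with the 2 groups only and 0 to 1 over the leave-outs in H19Ter against WT (0), 1 at 2-fold in H19Ter+neo against WT (3; 2 to 3 over the leave-outs), and in H19Ter+neo against H19Ter (4) 2 when scaled to totals, 2 without the GC and length trend, 0 at 2-fold and 0 to 3 over the leave-outs. Summed over unique members, replication-dependent CPM were 322, 214 and 325 and variant CPM 530, 499 and 568 in WT, H19Ter and H19Ter+neo. H4c4, at 89.8% unique, was not among these members. Of 79 differences past the threshold among the named genes, none changed direction. Many lost their call, 18 with voom, 10 without the GC and length trend, 6 when scaled to totals and 42 at 2-fold. Calls were also lost when a library was left out. Uniqueness in the genome was not run, since only transcripts were used. No paired analysis was possible because the genotypes share no replicate number. Depth limits members near 1 CPM.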
